A study of Mus musculus with 6 samples.

Results

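The genes described here are 9 genes of the tight junction, the belt of contacts that seals neighbouring epithelial cells near their apical side. They were chosen by name, with earlier results of these data known. The claudins are Cldn2, Cldn3, Cldn4, Cldn7, Cldn15 and Cldn23. The others are occludin (Ocln), the scaffold ZO-1 (Tjp1) and the junctional adhesion molecule JAM-A (F11r). They are 9 of the 51912 genes listed and of the 13644 tested, and all 9 had enough counts to be tested. RNA was sequenced from epithelial cells sorted from the small intestine of C57BL/6 mice raised in 3 ways. Antigen-free (AF) mice met no foreign antigens from a microbiota or from food, germ-free (GF) mice lived without a microbiota, and specific pathogen free (SPF) mice lacked only certain pathogens. Each group had 2 libraries, called here by the numbers in their titles: AF replicates 2 and 3, GF replicates 1 and 3, and SPF replicates 3 and 4. The sources used here do not give the age and sex of the mice, the diets or the markers of the sort.

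Claudins span the membrane 4 times and bind claudins of the neighbouring cell, and the mixture of claudins in a junction decides what passes between cells. Some, among them claudin-2 and claudin-15, form pores for small cations, while others, among them claudin-3 and claudin-4, are counted mainly as sealing claudins. In the small intestine claudin-2 is a protein of the crypt, and claudin-15 is found along crypt and villus, where it lets sodium back into the lumen for nutrient uptake. Occludin and JAM-A join the same belt, and ZO-1 ties the cytoplasmic tails of all of them to actin.

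The libraries held 16109488 to 19417054 expected counts, and 11719 to 13734 genes had 10 counts or more. They carried epithelial RNA: a list of 7 epithelial markers summed to 7292 to 9370 CPM (a count scaled to a common library total after correction for composition). A list of 6 endothelial markers summed to 1.17 to 3.80 CPM, with Kdr and Emcn at 0 counts, and one of 8 stromal markers to 1.96 to 5.63 CPM. The libraries differed in cell make-up within groups. The sum of 8 crypt stem cell markers was 41.9 CPM in SPF replicate 4 and 373 CPM in SPF replicate 3, and that of 8 lymphocyte markers reached 342 CPM in the GF library numbered 3, against 35.9 CPM in its pair. In SPF replicates 3 and 4, 7 Paneth cell markers summed to 1383 and 41.5 CPM and 7 goblet cell markers to 29154 and 2805 CPM. A list of 8 villus enterocyte markers summed to 23892 and 52463.5 CPM in these libraries. The 4 Y-linked genes looked at had 0 counts in both SPF libraries and were present in the other 4. Xist stood at 96.6 CPM or higher in SPF, at 14.8 CPM in GF replicate 3 and at 0.178 CPM or lower in the others. Sex and housing therefore cannot be told apart where AF or GF is set against SPF. GF replicate 3 held both Xist and Y-linked RNA, so the GF pair was not alike in these genes, which also touches AF versus GF. The cause of this was not tested. Each group's files carry a date-like mark of their own, so that handling in batches cannot be told apart from the groups either. The labels do not say whether each library is from another animal, and the p-values cover the spread between libraries, which may be technical.

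Levels of different genes were compared in TPM, which is corrected for transcript length. Cldn7, a claudin that also lies along the lateral membrane and binds EpCAM, had the highest TPM of the 9 genes in all 6 libraries. Its TPM was 359.9 and 378 in AF, 554 and 403 in GF, and 549.5 and 423 in SPF, here and below in the order of the replicate numbers. Cldn3 was second in all 6 libraries, with 179 and 223 TPM in AF, 441 and 237 TPM in GF, and 379 and 271 TPM in SPF. Cldn15 came after them in all 6 libraries, with 123 and 157 TPM in AF, 286 and 144 TPM in GF, and 269.5 and 207 TPM in SPF. These 3 genes thus kept their order in every library, although the GF ranges of Cldn7 and Cldn3, and of Cldn3 and Cldn15, overlapped.

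Cldn4 came next, with 99.3 and 103 TPM in AF, 75.7 and 92.2 TPM in GF, and 114 and 105 TPM in SPF. F11r followed, with 37.2 and 43.8 TPM in AF, 77.9 and 45.9 TPM in GF, and 73.9 and 55.1 TPM in SPF. Cldn4 and F11r were apart in AF and in SPF, and in GF replicate 1 F11r was above Cldn4. The other 4 genes were rarer. Ocln averaged 16.4 ± 3.20 TPM in AF, 25.0 ± 12.6 TPM in GF and 21.3 ± 5.66 TPM in SPF (SD, n = 2 each). Cldn23 averaged 12.1 ± 3.68 TPM in AF, 20.7 ± 10.02 TPM in GF and 18.5 ± 5.37 TPM in SPF. Cldn2 averaged 8.18 ± 3.10 TPM in AF, 19.2 ± 17.8 TPM in GF and 15.6 ± 19.0 TPM in SPF. Tjp1, at 6.27 ± 1.58 TPM in AF, 11.9 ± 6.20 TPM in GF and 9.15 ± 4.58 TPM in SPF, had the lowest group mean in each group. In that order no neighbours among Ocln, Cldn23, Cldn2 and Tjp1 were apart in any group. Within each of the 6 libraries Ocln was still above Cldn23, and Cldn23 above Tjp1, while Cldn2 changed place.

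**Figure D1:**
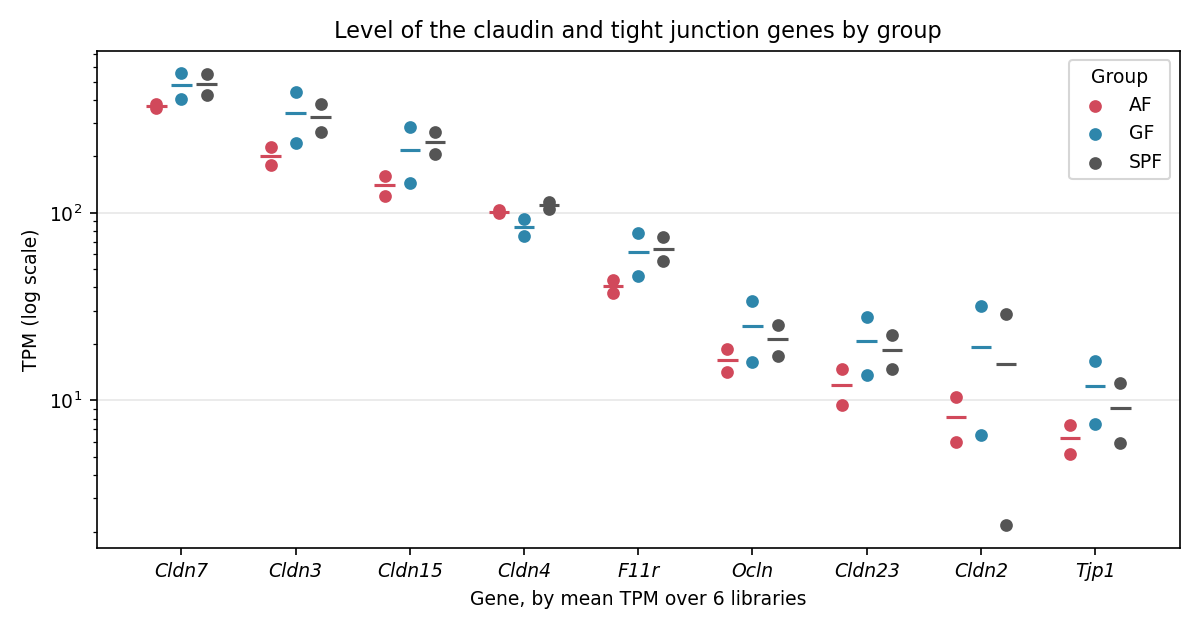
TPM (log axis) of the 9 genes, in order of their mean over all libraries; each point is 1 library, each bar a group's mean, coloured by AF, GF and SPF. Cldn7, Cldn3 and Cldn15 stand in the same order in all 6 libraries, and the points of Cldn2 spread widest.

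The upstream sequence is shown for 3 claudins that differed most in how steady they were: Cldn2 and Cldn4, the members with the widest spread between libraries of a group in CPM, and Cldn3, the one with the narrowest. Cldn3 and Cldn4 are also neighbours on chromosome 5, 39279 bases apart with no annotated gene wholly between them. Each window is the 250 bases before the RefSeq start of the gene on GRCm38.p6, written 5′ to 3′ in the direction of the gene. Cldn2 is the window chrX:139800558-139800807 on the plus strand, Cldn3 is chr5:134985964-134986213 on the plus strand, and Cldn4 is chr5:134946935-134947184 on the minus strand.
Cldn2: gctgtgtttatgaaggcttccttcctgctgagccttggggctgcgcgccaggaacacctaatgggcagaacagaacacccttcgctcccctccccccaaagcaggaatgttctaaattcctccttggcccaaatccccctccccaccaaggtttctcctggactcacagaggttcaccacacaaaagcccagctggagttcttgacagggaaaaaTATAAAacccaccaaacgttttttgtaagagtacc
Cldn3: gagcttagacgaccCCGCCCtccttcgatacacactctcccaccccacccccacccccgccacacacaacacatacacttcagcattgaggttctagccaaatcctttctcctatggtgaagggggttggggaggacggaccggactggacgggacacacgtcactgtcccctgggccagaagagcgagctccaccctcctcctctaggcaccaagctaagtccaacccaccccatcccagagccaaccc
Cldn4: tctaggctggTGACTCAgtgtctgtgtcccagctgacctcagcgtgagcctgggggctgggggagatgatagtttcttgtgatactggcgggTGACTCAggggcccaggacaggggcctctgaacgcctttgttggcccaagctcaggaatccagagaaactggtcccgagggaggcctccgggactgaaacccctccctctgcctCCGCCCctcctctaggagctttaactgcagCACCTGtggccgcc
Capitals mark matches on either strand to the AP-1 motif TGACTCA, the TATA box TATAAA, the Sp1 motif GGGCGG and the E-box CACCTG that Snail-type repressors bind. The motifs were chosen after the windows had been seen, and none of the matches printed overlap. The Cldn2 window held 1 TATA box, found in 12.4% of 32851 such windows of mouse genes, and none of the other motifs. The Cldn3 window held 1 Sp1 motif, found in 32.7% of windows. The Cldn4 window held 1 Sp1 motif, 1 E-box (in 17.2% of windows) and 2 AP-1 motifs, and 0.167% of windows held 2 or more of the AP-1 motif. A match describes the letters and says nothing of binding.

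Differences between groups were measured in CPM on scaled totals, in which the members fell into steady and variable genes. The spread within groups was summarised as the SD of log2 CPM pooled over the 3 pairs of libraries, which had a median of 0.277 over the 9018 tested genes with a mean of at least 5 CPM. It was 0.094 for Cldn3, 0.104 for Cldn23, 0.12 for Ocln, 0.136 for Cldn15, 0.152 for F11r and 0.16 for Cldn7, all below that median. It was 0.356 for Tjp1, 0.537 for Cldn4 and 1.38 for Cldn2, and 97.9% of the 9018 genes were steadier than Cldn2. This split belongs to the scaled CPM. In TPM, over all libraries, the highest value of Cldn4 was 1.51 times its lowest, the narrowest range of the 9 genes. That range was 2.33-fold for Cldn15, 2.47-fold for Cldn3, 2.94-fold for Cldn23 and 14.7-fold for Cldn2.

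**Figure D2:**
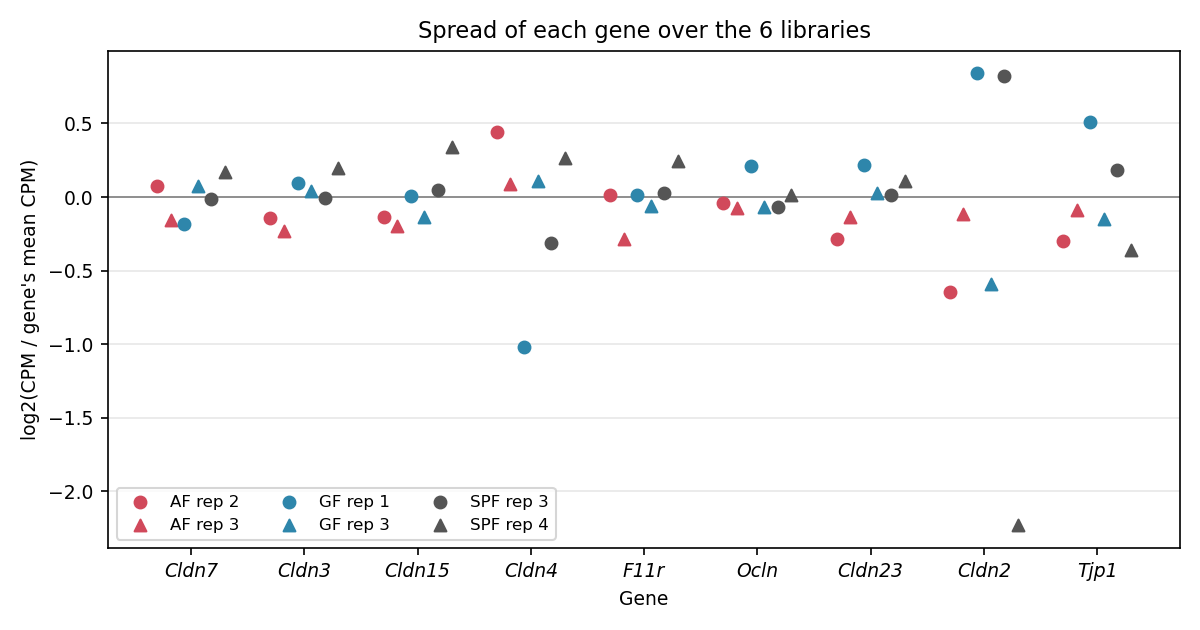
Log2 of the CPM of each gene in each library over the gene's mean CPM in all 6 libraries; colour gives the group (AF, GF, SPF) and shape the replicate. Cldn2 falls lowest in SPF replicate 4 and Cldn4 lowest in GF replicate 1, while the points of Cldn3, Cldn7, Cldn15, Cldn23, Ocln and F11r stay close to 0.

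Of the pore-forming claudins, Cldn2 (ENSMUSG00000047230, chromosome X, 139800828 to 139811386) measured 21.6 and 31.1 CPM in AF, 60.5 and 22.5 CPM in GF, and 59.8 and 7.20 CPM in SPF. The high libraries were GF replicate 1 and SPF replicate 3 and the low one SPF replicate 4, so that both AF libraries lay inside the range of SPF. The sum of the crypt stem cell markers ran 171 and 232 CPM in AF, 495 and 181 CPM in GF, and 373 and 41.9 CPM in SPF, in the same library order. The 9 proliferation markers summed to 139.7 and 261 CPM in AF, 289.7 and 133 CPM in GF, and 301 and 67.8 CPM in SPF. Their part in the Cldn2 values was not tested, and in sorted bulk cells fewer crypt cells and less RNA per cell cannot be told apart.

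Cldn15 (ENSMUSG00000001739, chromosome 5, 136966616 to 136975858) measured 290.3 and 277 CPM in AF, 319.6 and 289.9 CPM in GF, and 329 and 403 CPM in SPF. Both SPF libraries lay above all 4 others, and the AF and GF ranges overlapped. A list of 5 proximal small intestine markers summed to 1148 and 867 CPM in AF and 971 and 1133 CPM in GF. In SPF it summed to 1688 and 3312 CPM, although Onecut2 and Cybrd1 of that list were not highest in both SPF libraries. The villus enterocyte markers were highest in SPF replicate 4, but in SPF replicate 3 they lay inside the AF range. Fabp1 is in both lists. Their part in the values of Cldn15, and of F11r below, was not tested.

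Among the sealing claudins, Cldn3 (ENSMUSG00000070473, chromosome 5, 134986214 to 134987472) measured 269 and 253 CPM in AF, 317 and 305 CPM in GF, and 295 and 340.2 CPM in SPF. Both AF libraries lay below the other 4, whose GF and SPF ranges overlapped. Cldn4 (ENSMUSG00000047501, chromosome 5, 134945119 to 134946934) measured 226 and 177 CPM in AF, 82.4 and 180.0 CPM in GF, and 134 and 200.1 CPM in SPF. The groups overlapped, since GF replicate 1 was lowest and GF replicate 3 lay inside the AF range. A list of 6 villus tip markers summed to 4722 and 3382 CPM in AF, 908 and 2965 CPM in GF, and 1605 and 5269 CPM in SPF. GF replicate 1 and SPF replicate 3 were lowest, as for Cldn4 in CPM. In TPM Cldn4 was also lowest in GF replicate 1, at 75.7, but highest in SPF replicate 3, at 114. The scaling factor behind CPM was highest in GF replicate 1 (1.41) and SPF replicate 3 (1.25). The mitochondrial genes took 35.3 and 28.7% of the counts in AF, 17.9 and 32.1% in GF, and 18.1 and 27.2% in SPF. That share was likewise lowest in GF replicate 1 and SPF replicate 3, where in CPM Cldn4 was lowest and Cldn2 and Tjp1 were highest. It was highest in AF replicate 2, where the CPM of Cldn4 was highest. The part of the villus tip markers and of the mitochondrial share in these values was not tested.

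**Figure D3:**
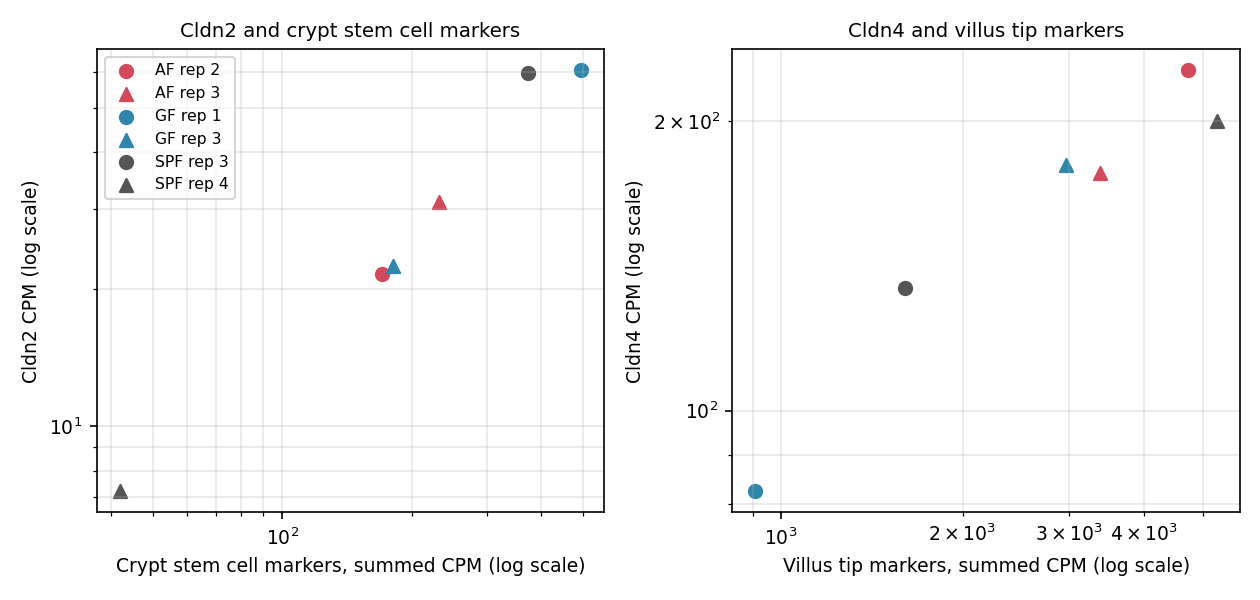
Left, CPM of Cldn2 against the summed CPM of 8 crypt stem cell markers; right, CPM of Cldn4 against the summed CPM of 6 villus tip markers (log axes, 1 point a library, coloured by AF, GF and SPF). SPF replicate 4 is lowest on both axes at left, at 7.20 CPM of Cldn2, and GF replicate 1 is lowest on both at right, at 82.4 CPM of Cldn4.

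Cldn7 (ENSMUSG00000018569, chromosome 11, 69964779 to 69967885) measured 389.9 and 332 CPM in AF, 325 and 389 CPM in GF, and 366 and 415 CPM in SPF, and the 3 groups overlapped. Cldn23 (ENSMUSG00000055976, chromosome 8, 35824712 to 35826559), a claudin of the gut epithelium, measured 21.8 and 24.2 CPM in AF, 30.8 and 27.1 CPM in GF, and 26.8 and 28.6 CPM in SPF. Both AF libraries were lower than the other 4.

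Ocln (ENSMUSG00000021638, chromosome 13, 100496507 to 100552718), a membrane protein whose MARVEL domain spans the membrane, measured 52.7 and 51.5 CPM in AF, 62.8 and 51.8 CPM in GF, and 51.8 and 54.9 CPM in SPF. GF replicate 1 was highest, and the groups overlapped. F11r (ENSMUSG00000038235, chromosome 1, 171437535 to 171464603), an immunoglobulin-type adhesion protein, measured 116 and 94.5 CPM in AF, 116 and 110.3 CPM in GF, and 117 and 136 CPM in SPF. Both SPF libraries were the highest. Tjp1 (ENSMUSG00000030516, chromosome 7, 65296165 to 65527781) measured 40.8 and 47.2 CPM in AF, 71.3 and 45.3 CPM in GF, and 56.8 and 39.1 CPM in SPF. As for Cldn2, GF replicate 1 and SPF replicate 3 were highest and SPF replicate 4 was lowest.

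GF versus SPF sets mice that lack a microbiota against mice that have one. None of the 9 genes passed edgeR's quasi-likelihood test at a Benjamini-Hochberg adjusted p below 0.05 over all genes, 0 were below an unadjusted p of 0.05, and DESeq2, edgeR's likelihood ratio test and limma on TPM called 0 as well. Of all genes tested, edgeR called 0.0147%, and 6.71% were below an unadjusted p of 0.05. DESeq2 called 0.356%, the likelihood ratio test 0.711% and limma 0.0413% of the genes each tested. Among the members 4 had a log2 fold change above 0 and 5 below, as did 48.1% of all genes below, with a median of -0.029 beside 0.022 over all genes. Leaving out single libraries moved that median between -0.13 (without SPF replicate 3) and -0.0057 (without GF replicate 3). Cldn15 and F11r were lower in both GF libraries than in both SPF libraries, 2 of 9 genes, where 17.1% of all genes were lower without overlap, and 0 were higher without overlap, where 16.8% of all genes were. The log2 fold change was -0.26 for Cldn15 (SE 0.27, edgeR adjusted p = 0.847) and -0.16 for F11r (SE 0.23, edgeR adjusted p = 0.887).

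The intervals show what GF versus SPF could have missed. Cldn23 had a fold of 1.05 with a 95% interval of 0.768 to 1.42, and Ocln one of 1.08 with 0.778 to 1.49. In this fit changes of 2-fold lay outside both. With library totals alone the SE of the log2 fold change rose from 0.18 to 0.42 for Cldn23 and from 0.19 to 0.40 for Ocln. That limit therefore holds for the scaled fit only. The interval was 0.638 to 1.51 for Cldn3, 0.57 to 1.47 for Cldn7, 0.531 to 1.31 for Cldn15 and 0.605 to 1.32 for F11r. In the scaled fit changes of 2-fold lay outside these as well. For Tjp1 the interval ran 0.73 to 2.03. For Cldn4, with a fold of 0.785, it ran 0.377 to 1.63, and for Cldn2, with a fold of 1.24, it ran 0.261 to 5.86. The Cldn2 difference rested on single libraries: its log2 fold change was 0.31 (SE 0.92) with all libraries, 2.53 without SPF replicate 3, -0.53 without SPF replicate 4, -0.59 without GF replicate 1 and 0.84 without GF replicate 3. For Cldn4 the log2 fold change of -0.35 became 0.10 when GF replicate 1 was left out and -1.02 when GF replicate 3 was.

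AF versus GF asks what the absence of food antigens does where microbes are already absent. Again edgeR called 0 of the 9 genes, as did DESeq2, limma and the likelihood ratio test, and no member had an unadjusted p below 0.05 (0 of 9). Over all genes edgeR called 0.0147%, DESeq2 0.215%, the likelihood ratio test 0.388% and limma 0.066%, and 3.6% had an edgeR p below 0.05 before adjustment. The members' median log2 fold change was -0.14, beside -0.023 over all genes, with 7 of 9 below 0, as were 52.9% of all genes. That median moved to -0.038 when GF replicate 1 was left out, to -0.27 when GF replicate 3 was and to -0.26 when AF replicate 2 was. Cldn3 and Cldn23 were lower in both AF libraries than in both GF libraries, 2 of 9, where 17.8% of all genes were lower without overlap and 15.8% higher. Cldn23 had the smallest p, with a log2 fold change of -0.33 (SE 0.18, 95% interval -0.78 to 0.12, edgeR adjusted p = 1), and Cldn3 stood at -0.25 (SE 0.25, interval -0.87 to 0.37).

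Cldn4 had the highest positive value in AF versus GF, a log2 fold change of 0.62 (SE 0.43, 95% interval -0.44 to 1.68). With GF replicate 1 left out it was 0.17, and with GF replicate 3 left out 1.29, and it stayed above 0 with each library left out. Cldn2 stood at -0.66 (SE 0.93, interval -2.92 to 1.61), and its sign turned without GF replicate 1, at 0.24. Tjp1 stood at -0.41 (SE 0.30, interval -1.15 to 0.33), and at -0.038 without GF replicate 1 and -0.70 without GF replicate 3. The fold was 1.01 for Cldn7 (interval 0.63 to 1.62), 0.909 for Ocln (0.657 to 1.26), 0.93 for F11r (0.63 to 1.37) and 0.931 for Cldn15 (0.594 to 1.46).

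AF versus SPF takes the loss of microbiota and of food antigens together, and shares its libraries with the other comparisons. With edgeR 0 of the 9 genes passed over all genes and 0 were below an unadjusted p of 0.05, and the other tools called 0. Over all genes edgeR called 0.044%, DESeq2 1.2%, the likelihood ratio test 2.18% and limma 0.0578%, and 11.3% had an edgeR p below 0.05 before adjustment. The log2 fold change was below 0 in 8 of 9 members, as it was in 49.1% of all genes, and the members' median was -0.27 beside 0.011 over all genes. In Cldn3, Cldn15, Cldn23 and F11r both AF libraries lay below both SPF libraries, 4 of 9 genes, where 22.6% of all genes were lower without overlap and 22% higher.

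Each of those 4 differences was larger than its SE, and none passed the test. Cldn15 had a log2 fold change of -0.37 (SE 0.27, edgeR adjusted p = 0.647), Cldn3 of -0.28 (SE 0.25, edgeR adjusted p = 0.724), and Cldn23 and F11r each of -0.27 (SE 0.18 and 0.23, edgeR adjusted p = 0.622 and 0.710). The 95% intervals ran from a fold of 0.494 to 1.22 for Cldn15, 0.535 to 1.26 for Cldn3, 0.61 to 1.13 for Cldn23 and 0.563 to 1.23 for F11r. The intervals of Cldn7 (0.576 to 1.48), Ocln (0.706 to 1.35) and Tjp1 (0.55 to 1.53) also held a fold of 1. Cldn4, the member above 0, stood at 0.27 (SE 0.43). Cldn2 stood at -0.35 (SE 0.93), at 1.87 without SPF replicate 3 and at -1.18 without SPF replicate 4.

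**Figure D4:**
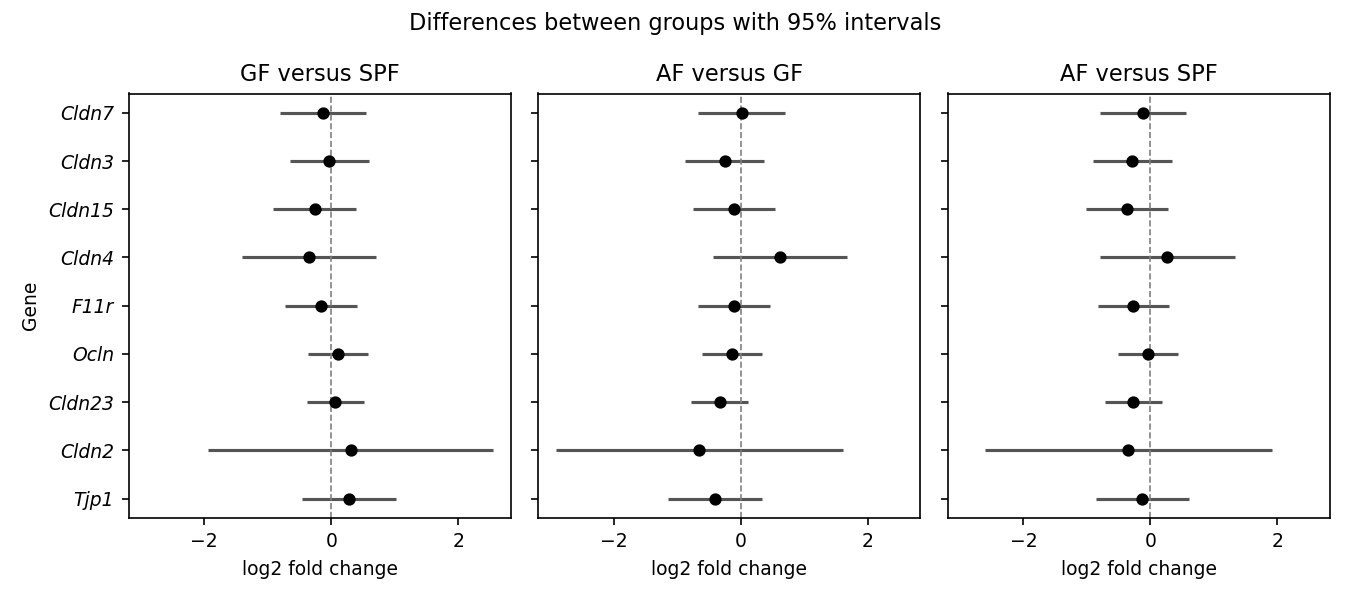
Log2 fold changes of the 9 genes (points) with 95% intervals (lines) in the 3 comparisons, from edgeR with all 6 libraries. Every interval holds 0 (dashed line), and those of Cldn2 are the widest, from -2.92 to 1.61 in AF versus GF.

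The scaling between libraries moved these values. With library totals alone the median of all genes shifted by 0.14 in GF versus SPF on the log2 scale, by -0.36 in AF versus GF and by -0.22 in AF versus SPF. The members' medians became 0.14, -0.53 and -0.46 in that order, beside 0.16, -0.38 and -0.20 over all genes. In TPM, AF libraries held 6 members below both SPF libraries and 4 below both GF libraries, where 35.9% and 27.9% of all genes were lower without overlap. In TPM, 1 member, Cldn4, was higher in both AF libraries than in both GF libraries (4.12% of all genes), and 0 were higher in AF versus SPF (7.14%) or in GF versus SPF (9.86%), where 1 was lower (11.7%). Cldn4 was the member whose picture changed most. Its TPM was 99.3 and 103 in AF, 75.7 and 92.2 in GF, and 114 and 105 in SPF, so that the groups were apart in TPM, with SPF highest and GF lowest, and overlapped in CPM. In AF versus SPF its log2 fold change was 0.27 in CPM and -0.11 by limma on log2(TPM + 1), and neither passed.

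Ratios between claudins within 1 library do not depend on that scaling. Of the summed TPM of the 6 claudins, Cldn7 took 46.4 and 42.6% in AF, 39.1 and 44.9% in GF, and 40.3 and 41.4% in SPF. Cldn3 took 23.0 and 25.2% in AF, 31.1 and 26.5% in GF, and 27.8 and 26.5% in SPF. Cldn15 took 15.8 and 17.7% in AF, 20.2 and 16.1% in GF, and 19.8 and 20.2% in SPF. These 3 claudins thus made up most of the claudin transcripts in all 6 libraries, and Cldn23 held 1.22 to 1.96%.

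Cldn4 and Cldn2 varied most within the mixture. Cldn4 took 12.8 and 11.6% in AF, 5.34 and 10.3% in GF, and 8.35 and 10.3% in SPF, so that both AF libraries lay above the other 4. The TPM ratio of Cldn4 to its neighbour Cldn3 was 0.555 and 0.461 in AF, 0.171 and 0.389 in GF, and 0.300 and 0.388 in SPF, again with both AF libraries highest. These ratios were formed after the values had been seen and carry no test. Cldn2 took 0.771 and 1.17% in AF, 2.24 and 0.733% in GF, and 2.13 and 0.211% in SPF. The ratio of Cldn2 to Cldn15, both pore-forming, was 0.0488 and 0.0659 in AF, 0.111 and 0.0457 in GF, and 0.108 and 0.0104 in SPF, a 10.6-fold range over the libraries with both ends outside AF. The ratio of Cldn15 to Cldn3 was steadier, at 0.686 and 0.704 in AF, 0.649 and 0.607 in GF, and 0.711 and 0.764 in SPF. The groups did not overlap in it. It too was formed after the values had been seen and carries no test, and how often other gene pairs separate the groups was not counted. In the ratio of Cldn7 to Cldn3 groups overlapped, at 2.01 and 1.69 in AF and 1.26 and 1.70 in GF.

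**Figure D5:**
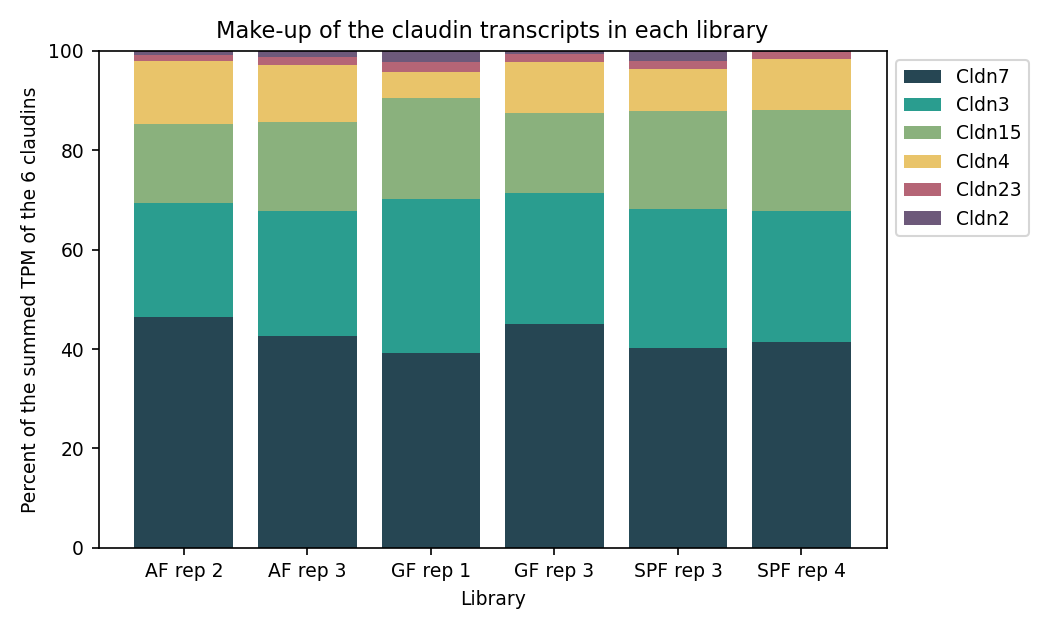
Share of each claudin, in percent, of the summed TPM of the 6 claudins in each library (stacked bars; AF, GF and SPF from left to right). Cldn4 takes 12.8 and 11.6% in the AF libraries and 5.34% in GF replicate 1, and Cldn2 at most 2.24%.

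The effective length that RSEM gave each gene is a readout of which transcripts its reads were assigned to. Cldn3 and Cldn4 have 1 transcript each in the tables, and their effective lengths differed by 4.10 bases at most between libraries. Tjp1, with 7 transcripts of 385 to 7049 bases, varied most, at 5702 and 6090.4 bases in AF, 6605 and 5068 bases in GF, and 6379 and 5679 bases in SPF. GF held both the longest and the shortest value, so the groups overlapped. Cldn7, with 5 transcripts of 373 to 1335 bases, had 781 and 837 bases in AF, 884 and 809 bases in GF, and 926 and 843.5 bases in SPF. The AF and SPF ranges did not overlap and the GF range crossed both. Cldn2 stood at 2599 bases in AF replicate 2 and between 2864 and 2867 bases in the others. With effective lengths as offsets in edgeR, Cldn7 in AF versus SPF had a log2 fold change of 0.0035 in place of -0.11.

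Reads of the members were not shared with other genes by the authors' counting: RSEM's posterior standard deviation of the count was 0 for all 9 genes in all libraries. The span of Cldn3 overlaps that of Wbscr25 on the other strand, and only spans, not exons, were compared. Wbscr25 was assigned 64 expected counts over all libraries against 32284 for Cldn3. The strand setting is not given, so whether counts of Cldn3 include reads from the other strand cannot be told. Tjp1 overlaps the annotated genes Gm44792, Gm44794 and Gm44795, which held 3, 0 and 0 expected counts against 5746 for Tjp1.

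The other genes of cell junctions were taken from 5 lists with 74 genes, of which 52 were tested. None passed edgeR over all genes in any comparison. Those named below had the smallest p of their list in a comparison. Groups that lie apart in them therefore follow in part from that choice. Below an unadjusted p of 0.05 were 3 genes in GF versus SPF, 1 in AF versus GF and 3 in AF versus SPF, among 52, beside the 6.71, 3.6 and 11.3% of all genes. Of the 18 other claudins 17 were in the tables, 7 had 0 counts in all libraries and 2 were tested. A count of 0 allows up to 3 counts, 0.11 to 0.235 CPM by library, for counting error only. Cldn5, the claudin of endothelium, and Cldn10 were among those at 0, and none of the 15 untested claudins exceeded 12 counts in a library. Cldn12, an atypical claudin, measured 11.3 and 14.8 CPM in AF, 19.3 and 12.6 CPM in GF, and 19.6 and 17.8 CPM in SPF, and Cldn8, a colonic sealing claudin, at most 1.13 CPM.

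Of the other membrane proteins of the tight junction 6 of 9 were tested. Marveld3, a relative of occludin, measured 25.8 and 26.03 CPM in AF, 26.9 and 30.0 CPM in GF, and 36.7 and 35.8 CPM in SPF. Both SPF libraries were above all others, with log2 fold changes of -0.49 in AF versus SPF (SE 0.17, edgeR unadjusted p = 0.0294, adjusted p = 0.398) and -0.35 in GF versus SPF (SE 0.17, edgeR adjusted p = 0.738). Ildr1, an angulin of the corners where 3 cells meet, measured 4.40 and 4.81 CPM in AF, 3.90 and 4.48 CPM in GF, and 2.29 and 0.343 CPM in SPF. It was lowest in both SPF libraries (log2 fold change 1.77, SE 0.79, edgeR adjusted p = 0.464 in AF versus SPF). Ildr1 is also a gene of enteroendocrine cells in mouse gut, and a list of 6 enteroendocrine markers summed to 1339 and 1828 CPM in AF, 1037 and 2650 CPM in GF, and 812 and 251 CPM in SPF, whose part in the Ildr1 values was not tested. Marveld2, tricellulin, stood at 19.6 and 23.9 CPM in AF, 26.6 and 23.2 CPM in GF, and 24.5 and 18.3 CPM in SPF.

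Of the plaque and polarity proteins 18 of 19 were tested, with 0 below an unadjusted p of 0.05 in each comparison. Their median was -0.20 in GF versus SPF, 0.085 in AF versus GF and -0.11 in AF versus SPF. With library totals alone these became -0.071, -0.26 and -0.29 in that order. In GF versus SPF 9 of 18 genes were then above 0, in place of 5. Pard6b, a PAR polarity adaptor, measured 29.5 and 25.3 CPM in AF, 23.1 and 21.3 CPM in GF, and 25.8 and 37.0 CPM in SPF. Mpp5, the Crumbs-complex scaffold PALS1, measured 29.1 and 20.5 CPM in AF, 27.1 and 24.1 CPM in GF, and 30.1 and 44.7 CPM in SPF, and Pard3, the polarity scaffold PAR-3, 31.7 and 31.7 CPM in AF, 37.8 and 34.9 CPM in GF, and 36.4 and 42.6 CPM in SPF. Cgnl1, paracingulin, was rare, at 0.236 and 0.594 CPM in AF, 1.86 and 1.29 CPM in GF, and 0.504 and 0 CPM in SPF. Tjap1 measured 103.8 and 66.8 CPM in AF, 43.0 and 68.6 CPM in GF, and 50.2 and 92.3 CPM in SPF.

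Of the adherens junction and desmosome genes 18 of 19 were tested, and the log2 fold change was below 0 in 16 in GF versus SPF (median -0.19), 13 in AF versus GF (median -0.15) and 15 in AF versus SPF (median -0.24). They were lower without overlap in 8, 7 and 12 genes in that order, beside 17.1, 17.8 and 22.6% of all genes. With library totals alone the GF versus SPF median turned to 0.018, with 10 of 18 genes above 0, and the others became -0.52 and -0.46, while limma on log2(TPM + 1) gave -0.13, -0.52 and -0.60. Dsc2, a desmosomal cadherin, measured 72.4 and 75.6 CPM in AF, 90.7 and 82.4 CPM in GF, and 104 and 136 CPM in SPF (log2 fold change -0.70 in AF versus SPF, SE 0.23, edgeR unadjusted p = 0.0226, adjusted p = 0.389). Cdh17, the liver-intestine cadherin, measured 541 and 537 CPM in AF, 702 and 613 CPM in GF, and 798 and 1029 CPM in SPF (log2 fold change -0.76, SE 0.32, edgeR adjusted p = 0.441). Dsg2, desmoglein-2, measured 89.6 and 79.2 CPM in AF, 149 and 104 CPM in GF, and 131 and 123 CPM in SPF, and Ppl, the desmosomal linker periplakin, 6.83 and 8.73 CPM in AF, 11.9 and 13.2 CPM in GF, and 6.78 and 6.38 CPM in SPF. Ppl was above the other groups in both GF libraries, with a log2 fold change of 0.93 in GF versus SPF (SE 0.26, edgeR unadjusted p = 0.0122, adjusted p = 0.738) and -0.69 in AF versus GF (SE 0.26, edgeR unadjusted p = 0.0396, adjusted p = 1).

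Of 9 claudin partners, membrane proteases and actomyosin regulators 8 were tested. Mylk, whose kinase product tightens the actomyosin ring and opens the junction, measured 81.9 and 88.7 CPM in AF, 99.8 and 92.7 CPM in GF, and 125 and 183 CPM in SPF. Its log2 fold change was -0.85 in AF versus SPF (SE 0.26, edgeR unadjusted p = 0.0175, adjusted p = 0.389) and -0.68 in GF versus SPF (SE 0.26, edgeR unadjusted p = 0.0413, adjusted p = 0.738). Rock2 measured 58.4 and 54.5 CPM in AF, 50.1 and 53.5 CPM in GF, and 69.0 and 83.4 CPM in SPF (log2 fold change -0.56 in GF versus SPF, SE 0.20, edgeR unadjusted p = 0.0305, adjusted p = 0.738), and Rock1 21.0 and 23.8 CPM in AF, 26.9 and 23.3 CPM in GF, and 28.2 and 34.4 CPM in SPF. For these 3 genes, named for their small p against SPF, both SPF libraries were the highest of the 6. Over all genes, 17.1% were lower without overlap in GF versus SPF and 22.6% in AF versus SPF. St14, the membrane protease matriptase, measured 343 and 247 CPM in AF, 176 and 268 CPM in GF, and 293 and 462 CPM in SPF, and its inhibitor Spint2 373 and 348 CPM in AF, 417 and 426 CPM in GF, and 345 and 325 CPM in SPF.

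Across all 6 libraries, the genes whose log2 CPM ran most like a member's were taken from 8670 of the genes with a mean of at least 5 CPM, leaving out members, predicted and mitochondrial genes, pseudogenes and antigen receptor segments, by the highest Pearson r, which ignores the size of the swings. For Cldn2 these were Qsox2 (r = 0.999) and Riox1 (r = 0.998), and 332 genes had an r above 0.95 with it. Qsox2 ran 6.05 and 6.95 CPM in AF, 9.62 and 6.11 CPM in GF, and 9.25 and 3.57 CPM in SPF, a narrower range than that of Cldn2. For Cldn4 they were Zc3h3 (r = 0.998) and Syt12 (r = 0.992), for Tjp1 Epb41l5 and Magt1 (both r = 0.989), and for Cldn15 Lypla1 and Xpr1 (both r = 0.998). Cldn3 ran most like Ces1g (r = 0.997) and Csnk1g1 (r = 0.993), Cldn7 like Mark3 and Hyal2 (both r = 0.992), and Cldn23 like Timm17b (r = 0.985) and Snx18 (r = 0.983). Ocln ran most like Slc30a4 (r = 0.966) and Sowaha (r = 0.961), and 3 genes had an r above 0.95 with it. F11r ran most like Pex11g (r = 0.985) and Afdn (r = 0.979), the junction scaffold afadin. With 6 libraries and this many genes such values are a description.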

How the data were processed

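Per the submitters' processing notes, STAR 2.5.2b, RSEM and edgeR 3.16.5 were used with GRCm38/mm10. The authors deposited RSEM's expected counts per gene, unscaled between libraries, per the file headers. TPM, scaled by effective length to a fixed total, was also deposited per the file headers, as were effective lengths and the posterior standard deviation of the count. The sources used here give no RSEM version, annotation, filter or strand setting.

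Expected counts were rounded (23.5% of values above 0 were not whole within 0.001). Of 51912 IDs, 51633 matched a GENCODE M21 symbol. After filterByExpr, 13644 genes were tested with edgeR 4.0.16 (R 4.3.3) by the quasi-likelihood F test, TMM scaling and all 6 libraries in 1 fit (3 residual degrees of freedom, common coefficient of variation 0.368). TMM factors were 0.791 to 1.41, and 1 count was worth 0.0365 to 0.0785 CPM. P-values were Benjamini-Hochberg adjusted over all genes, with a threshold of 0.05. Standard errors are the absolute log2 fold change over the square root of F. Alternatives used DESeq2 1.42.0 and limma 3.58.1, with limma on TPM of at least 1 in 2 libraries. The test was checked on counts simulated with the common coefficient of variation for every gene. The members' spread differed from gene to gene, which that check does not cover. Members and lists were chosen with earlier results of these data known. Genes named from the lists are, per comparison, those called or else the 2 with the smallest p, and for likeness the 2 genes of at least 5 CPM with the highest r. Cldn25 had no match. Promoter windows are from RefSeq tables on GRCm38.p6, where 8 of the 9 members matched, all but Cldn23.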

Additional observations from a re-analysis of the deposited data

How the results depend on the processing

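With 0 members called in each comparison, no alternative called any, and the lowest adjusted p was 0.0806, for Cldn2 in GF versus SPF without SPF replicate 3 (edgeR). The direction of small differences did turn. Of 324 member values under other settings 14 changed sign, and of 162 with a library left out 15 did. With library totals alone, GF versus SPF gave 0.14 for Cldn3, 0.0028 for Cldn7 and 0.011 for F11r, and AF versus GF gave -0.32 for Cldn7. With no low-count filter Cldn7 stood at -0.0033 in AF versus GF. By limma on log2(TPM + 1) the values were 0.014 for Cldn3 (GF versus SPF), -0.36 for Cldn7 (AF versus GF) and -0.11 for Cldn4 (AF versus SPF), and with a pseudocount of 0.1 they were 0.014, -0.36 and -0.11. Effective lengths as offsets gave 0.0035 for Cldn7 and 0.026 for Ocln in AF versus SPF, and a fit of only the groups compared gave 0.0035 for Cldn3 in GF versus SPF. With each library left out in turn, log2 fold changes ran as follows. In GF versus SPF they were -0.59 to 2.53 for Cldn2, -0.13 to 0.072 for Cldn3, -1.02 to 0.10 for Cldn4, -0.038 to 0.15 for Cldn23, -0.047 to 0.23 for Ocln and -0.090 to 0.57 for Tjp1. In AF versus GF they were -1.20 to 0.24 for Cldn2, -0.11 to 0.15 for Cldn7, -0.26 to 0.016 for F11r and -0.27 to 0.012 for Ocln. In AF versus SPF they were -1.18 to 1.87 for Cldn2, -0.37 to 0.17 for Tjp1 and -0.078 to 0.0047 for Ocln.

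The count of genes called over the whole table, 2 in GF versus SPF, 2 in AF versus GF and 6 in AF versus SPF, depended on the tool and on single libraries. In that order it was 81, 49 and 274 with DESeq2, 97, 53 and 298 with the likelihood ratio test, and 484, 264 and 804 with no low-count filter. Library totals alone gave 0 and 4 in the first 2 comparisons, limma on log2(TPM + 1) 5 and 8, and with a pseudocount of 0.1 limma called 9, 14 and 13. Effective lengths as offsets gave 1 in AF versus GF, and the fit of only the groups compared 0, 8 and 2. With a library left out the counts ran 0 to 369, 0 to 9 and 0 to 625, the highest GF versus SPF and AF versus SPF counts being those without SPF replicate 3. The cause was not tested. A lone library is then assumed to vary like the other groups. No paired analysis was possible because the groups compared share only replicate number 3. A claudin at 0 counts was not detectable at this depth below 0.11 to 0.235 CPM, by library.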
